A study of Homo sapiens with 6 samples.

Results

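The genes described here are 10 genes of transforming growth factor beta (TGF-beta) signalling, chosen by symbol among the 57445 gene identifiers of the table. They are the ligand genes TGFB1 and TGFB2, the activin subunit gene INHBA, the receptor genes TGFBR1 and TGFBR2, the signal transducer genes SMAD2, SMAD3 and SMAD4, the inhibitory SMAD7, and TGFBI, a gene for a secreted matrix protein induced by the pathway. All 10 were found, each under 1 identifier, and all 10 passed the filter of at least 1 TPM (the expression level scaled for transcript length and for the library total) in at least 3 libraries. The rule used symbols only.

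RNA was sequenced from MDA-MB-231 cells, an established triple-negative human breast cancer cell line, with 3 libraries labelled control (shCTL) and 3 labelled ROR1 knockdown (shRor1). Both groups carried a stably integrated pGIPZ lentiviral vector and were selected with 2 µg/ml puromycin, and the shRor1 vector expresses a short hairpin RNA against ROR1, a receptor tyrosine kinase-like protein of non-canonical Wnt signalling. The labels describe the control both as an empty vector and as shCTL, the study's text calls it a non-silencing shRNA, and the header of its columns also holds the word DMSO. No source used here says whether the 3 libraries of a group came from separate cultures or separate transductions, so every p-value and interval measures only the spread between these libraries, which may be technical. The columns carry no replicate numbers, and libraries are numbered 1 to 3 by their order within a group.

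TGF-beta ligands are secreted in a latent form that is stored in the matrix and must be released before it can bind. The active dimer binds the type II receptor TGFBR2, which phosphorylates the type I receptor TGFBR1, and this kinase phosphorylates SMAD2 and SMAD3, which bind SMAD4 and enter the nucleus to regulate target genes. Activins built from the INHBA product use other receptors but the same SMAD2 and SMAD3, while bone morphogenetic proteins (BMPs) act through SMAD1, SMAD5 and SMAD9. SMAD7 is induced by the pathway and blocks the type I receptor. In epithelial cancers the pathway can restrain growth in early disease and promote invasion and mesenchymal features in later disease.

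Several of these genes belong to families of close relatives, and 50-base reads were divided between genes by the authors. The coding stretches in which 3 pairs resemble each other are therefore shown as examples, though not always of the closest relatives. Each is the best aligned stretch of 90 coding bases within 1 exon, read 5′ to 3′ on the coding strand of GRCh37, and capitals mark the bases that differ between both members of a pair. The first pair is SMAD2 and SMAD3, the receptor-activated SMADs of TGF-beta (SMAD2 exon 10 of 11, chr18:45371758-45371847, minus strand, and SMAD3 exon 8 of 9, chr15:67479711-67479800, plus strand).
SMAD2: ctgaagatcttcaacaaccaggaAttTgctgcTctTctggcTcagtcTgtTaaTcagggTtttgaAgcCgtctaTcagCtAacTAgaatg
SMAD3: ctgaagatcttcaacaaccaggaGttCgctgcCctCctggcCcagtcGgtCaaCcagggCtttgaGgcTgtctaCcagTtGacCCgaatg
The second pair is TGFB1 and TGFB2, both in exon 1 of 7 (chr19:41858773-41858862, minus strand, and chr1:218520104-218520193, plus strand).
TGFB1: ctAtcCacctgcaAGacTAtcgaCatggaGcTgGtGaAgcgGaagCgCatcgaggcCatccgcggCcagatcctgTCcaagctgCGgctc
TGFB2: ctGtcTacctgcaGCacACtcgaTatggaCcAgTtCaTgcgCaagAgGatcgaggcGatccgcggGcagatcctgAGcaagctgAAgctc
The third pair is TGFBR1 and ACVR1B, the type I receptor of activin, both in exon 4 of 9 (chr9:101900263-101900352 and chr12:52374875-52374964, both plus strand).
TGFBR1: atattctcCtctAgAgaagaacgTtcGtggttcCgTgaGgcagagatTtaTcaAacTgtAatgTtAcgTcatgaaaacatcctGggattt
ACVR1B: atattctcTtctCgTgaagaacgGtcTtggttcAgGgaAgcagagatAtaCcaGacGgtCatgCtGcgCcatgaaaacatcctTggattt

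The stretches of SMAD2 and SMAD3 differed at 16 of 90 bases, 14 of them at the third base of a codon, and the longest run of identical bases in their whole coding sequences was 23. TGFB1 and TGFB2 differed at 21 bases of their stretches and shared no coding run longer than 17. TGFB1 and TGFB3, a closer pair not shown, differed at 14 of 90 bases, and their longest shared coding run was 14. TGFBR1 and ACVR1B differed at 17 bases, and their longest shared coding run was 17. Over the whole canonical transcript of each gene, 9 of the 10 genes shared no 50-base word with any transcript from another place in the genome. SMAD2 shared 412 of 34577 words (1.19%). An error-free read of 50 bases from these 9 canonical transcripts thus matches, in the same orientation, no annotated transcript from elsewhere in the genome. Other transcripts of the same genes and matches in the opposite orientation were not searched.

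Overlapping neighbours are a separate matter. Of the 50-base words of SMAD4, 8.25% are also words of ENSG00000267699, an overlapping gene on the same strand with 0 to 0.21 TPM. Of the words of TGFB2, 22.7% are shared with TGFB2-OT1, a long non-coding RNA on the same strand that is absent from the gene identifiers of these data. Exons of TGFB1 overlap those of HNRNPUL1 on the opposite strand (237.17 to 258.57 TPM), and exons of TGFB2 and INHBA overlap TGFB2-AS1 (1.09 to 2.39 TPM) and INHBA-AS1 (0.29 to 0.45 TPM). Exons of SMAD3 overlap ENSG00000259347, also on the opposite strand (0 to 0.09 TPM). The kit marks strand, but whether counting used it is not given in the sources used here, so the values of TGFB1, TGFB2, INHBA and SMAD3 may hold reads of the opposite strand.

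The targeted gene was examined first. ROR1 had 15.42, 13.49 and 20.56 TPM in shCTL, against 9.34, 11.93 and 14.85 TPM in shRor1. The log2 fold change, here and below on the log2(TPM + 1) scale, was −0.43 (SE 0.20, limma adjusted p = 0.984), with shRor1 library 3 inside the range of the controls, so the groups overlapped. An exact two-sided permutation test gave p = 0.2, where 3 against 3 libraries cannot go below 0.1. The study reports a stable ROR1 knockdown in these cells with a Western blot of the protein, which these RNA values do not measure. The labels are followed below, and directions are those of libraries labelled shRor1 against libraries labelled shCTL.

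The values hold no read depth, since TPM is scaled to the same total in every library, and no counting interval can be given. Between 16036 and 17033 genes reached 1 TPM, the 50 highest identifiers took 19.2% to 20.7% of each library, and mitochondrial genes took 7.80% to 9.61% in shCTL and 7.57% to 9.90% in shRor1, lowest in library 1 of each group. Among the mesenchymal markers of MDA-MB-231, levels ran from LOX (10.12 to 22.51 TPM) to VIM (2398.72 to 2919.77 TPM). Among the luminal and epithelial markers, the hormone receptor genes ESR1 and PGR did not exceed 0.21 and 0.01 TPM. Their absence is only part of the definition of triple-negative cells. In the same list EPCAM (12.58 to 15.80 TPM), XBP1 (58.07 to 71.70 TPM) and KRT19 (84.77 to 141.5 TPM) were well expressed. Summed over their lists, 10 mesenchymal markers took 4518 to 4669 TPM in shCTL and 4640 to 4979 TPM in shRor1, and 10 luminal and epithelial markers took 183 to 216 TPM and 190 to 241 TPM. The 9 fibroblast and blood markers with an identifier summed to 9.49 to 15.5 TPM and 9.25 to 14.2 TPM. The fibroblast marker COL1A1 was the highest of them (7.25 to 13.87 TPM), DCN had 0.76 to 1.38 TPM, and LUM was at 0 in all 6 libraries. The mesenchymal list includes TGFBI itself. After the group means were removed, the third library of both groups stood apart from the other 4 on the leading component of the residuals, which held 40.8% of the residual variance (scores of −0.546 and −0.602, against 0.208 to 0.338). With that component as a covariate the number of the 10 genes called was again 0.

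The ligand genes were expressed at moderate levels. TGFB1 (chromosome 19, 41807492 to 41859827, minus strand) had 29.65, 35.46 and 40.81 TPM in shCTL, against 35.88, 43.6 and 42.07 TPM in shRor1. Libraries 2 and 3 of shRor1 lay above every control and library 1 lay among them. The group means were 35.3 ± 5.58 and 40.5 ± 4.09 TPM (SD, n = 3), a log2 fold change of 0.20 with an SE of 0.13, the highest among the 10 genes, and its 95% interval ran from −0.10 to 0.51. In a bulk culture, more cells with a transcript and more of it per cell cannot be told apart.

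TGFB2 (chromosome 1, 218518678 to 218617961, plus strand), which encodes a ligand that binds TGFBR2 well only with help from the co-receptor TGFBR3, had 43.58, 44.24 and 48.34 TPM in shCTL and 39.45, 45.89 and 52.23 TPM in shRor1. The shRor1 libraries spread to both sides of the controls. The log2 fold change of TGFB2 was 0.01 (SE 0.11), with an interval from −0.25 to 0.26. INHBA (chromosome 7, 41706766 to 41745432, minus strand) was much lower, with 2.59, 3.1 and 2.24 TPM in shCTL and 3.12, 1.8 and 1.94 TPM in shRor1. Library 1 of shRor1 was the highest of all 6 for INHBA and the other two shRor1 libraries were the lowest. Its log2 fold change of −0.16 (SE 0.18) was the lowest of the 10, and its interval, from −0.59 to 0.27, the widest.

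The receptor genes shared a pattern across libraries. TGFBR2 (chromosome 3, 30648093 to 30735634, plus strand), the type II kinase that binds ligand, had 89.36, 92.12 and 86.91 TPM in shCTL and 82.14, 107.64 and 111.25 TPM in shRor1. TGFBR1 (chromosome 9, 101866320 to 101916474, plus strand), the type I kinase that phosphorylates SMAD2 and SMAD3, had 12.21, 13.16 and 13.67 TPM in shCTL and 11.05, 16.29 and 16.44 TPM in shRor1. For both, shRor1 library 1 was the lowest of the 6 libraries and shRor1 libraries 2 and 3 were the highest. The groups overlapped for both receptors. The means were 89.5 ± 2.61 and 100.3 ± 15.9 TPM for TGFBR2 (SD, n = 3), with a log2 fold change of 0.15 (SE 0.12, interval −0.12 to 0.43), and 13.0 ± 0.741 and 14.6 ± 3.07 TPM for TGFBR1, with a log2 fold change of 0.14 (SE 0.16, interval −0.23 to 0.50).

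The size of the receptor differences moved with single libraries. Without shRor1 library 1, the log2 fold change was 0.29 for TGFBR2 (limma, unadjusted p = 0.00462, adjusted p = 0.440) and 0.31 for TGFBR1 (limma, unadjusted p = 0.0181, adjusted p = 0.441). At the same setting 1720 of 16554 genes, 10.4%, had an unadjusted p below 0.05, compared with 2.85% when all 6 libraries were used. Without shRor1 library 3 the same values were 0.07 for TGFBR2 and 0.04 for TGFBR1. ROR1 was lowest in shRor1 library 1 as well, at 9.34 TPM, and without that library its log2 fold change was −0.27. Mitochondrial genes also took their smallest share, 7.57%, in that library, and the part of this in the receptor values was not tested.

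**Figure D1:**
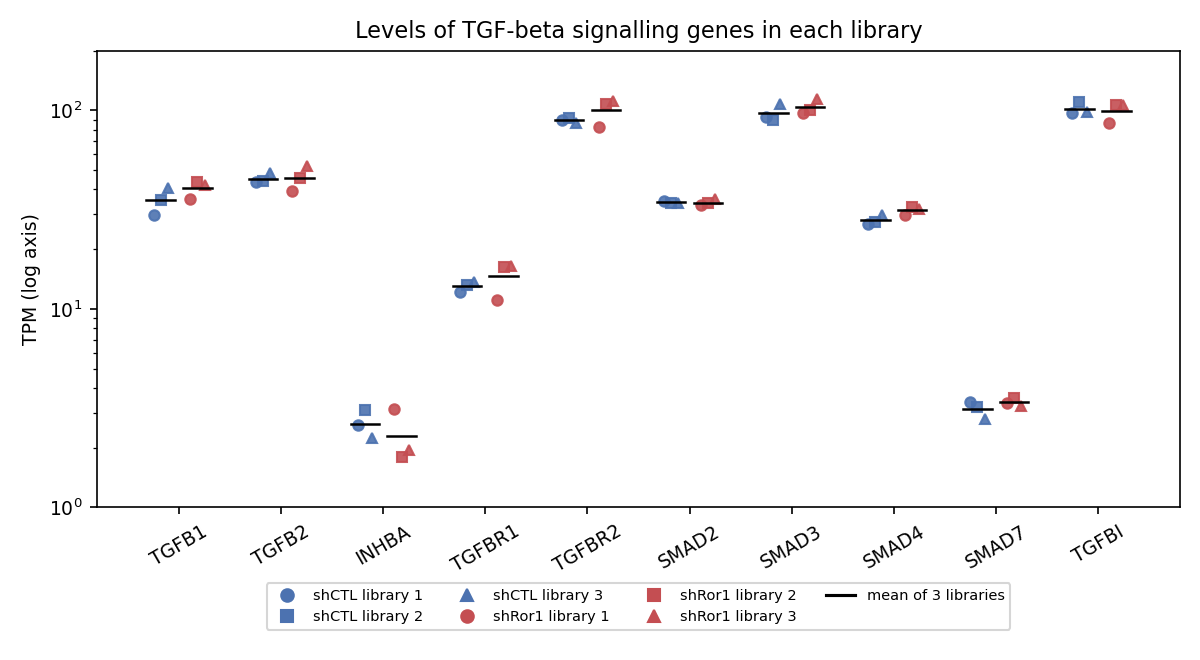
Level of each gene in TPM on a log axis, with 1 point per library (blue shCTL, red shRor1, marker shapes for libraries 1 to 3) and a black line at the mean of 3 libraries. The points of both groups overlap for every gene except SMAD4, and for TGFB2, TGFBR1, TGFBR2, SMAD2 and TGFBI the circle of shRor1 library 1 lies below all other points of that gene.

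Among the signal transducers, SMAD4 was the only gene whose groups did not overlap. SMAD4 (chromosome 18, 48554898 to 48611415, plus strand), the common partner of the receptor-activated SMADs, had 26.88, 27.37 and 29.63 TPM in shCTL and 29.79, 32.79 and 31.83 TPM in shRor1. The gap between the highest control and the lowest shRor1 library was small, 29.63 against 29.79 TPM. The means were 28.0 ± 1.47 and 31.5 ± 1.53 TPM (SD, n = 3), with a log2 fold change of 0.17 (SE 0.08, interval −0.02 to 0.35, limma adjusted p = 0.984). The exact permutation test of SMAD4 gave p = 0.1, the smallest value that 3 against 3 libraries allow. Of all 16554 genes tested, 6.48% were likewise higher in every shRor1 library than in every control.

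SMAD2 (chromosome 18, 45335328 to 45457517, minus strand) was the steadiest of the 10, with 35.14, 34.14 and 34.19 TPM in shCTL and 33.26, 34.15 and 35.69 TPM in shRor1. All 6 libraries lay within a few TPM of each other, and the interval of the SMAD2 log2 fold change, from −0.17 to 0.16 around −0.01 (SE 0.07), was the narrowest. SMAD3 (chromosome 15, 67356101 to 67487511, plus strand), which unlike the main form of SMAD2 binds DNA directly, had 93.04, 89.52 and 107.56 TPM in shCTL and 97.42, 100.13 and 114.74 TPM in shRor1. In each group library 3 was the highest for SMAD3, and the groups overlapped. The log2 fold change of SMAD3 was 0.11 (SE 0.10, interval −0.12 to 0.34).

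The inhibitor and the target gene also overlapped between groups. SMAD7 (chromosome 18, 46446223 to 46477335, minus strand), which is induced by the pathway and competes with SMAD2 and SMAD3 for the type I receptor, had 3.41, 3.21 and 2.78 TPM in shCTL and 3.37, 3.54 and 3.23 TPM in shRor1, a log2 fold change of 0.09 (SE 0.12, interval −0.20 to 0.37). TGFBI (chromosome 5, 135364677 to 135399507, plus strand), whose product binds collagens and integrins in the matrix, had 97.09, 110.46 and 97.82 TPM in shCTL and 86.22, 106.36 and 107.02 TPM in shRor1. Again shRor1 library 1 was the lowest of the 6 for TGFBI and the remaining shRor1 libraries lay among the controls. The log2 fold change of TGFBI was −0.03 (SE 0.10, interval −0.27 to 0.21).

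Read across the 10 genes, no difference passed the test. With limma and Benjamini-Hochberg adjustment at 0.05 the number of the 10 genes called was 0, as it was among all 16554 genes (0%). With edgeR, the study itself called only AGR2 and a gene for an uncharacterized protein, neither of them among the 10. The number of the 10 with an unadjusted p below 0.05 in limma was 0, where 2.85% of all genes (472) had one. By sign, 7 of the 10 were higher and 3 lower, and 67.0% of all genes tested were higher. The median log2 fold change was 0.10, against 0.05 over all genes, and the median of its absolute value was 0.12, against 0.09. The groups did not overlap for 1 of the 10, SMAD4, and for 7.78% of all genes in either direction. The lower ends of the 10 intervals reached down to −0.59 (INHBA) and the upper ends up to 0.51 (TGFB1).

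**Figure D2:**
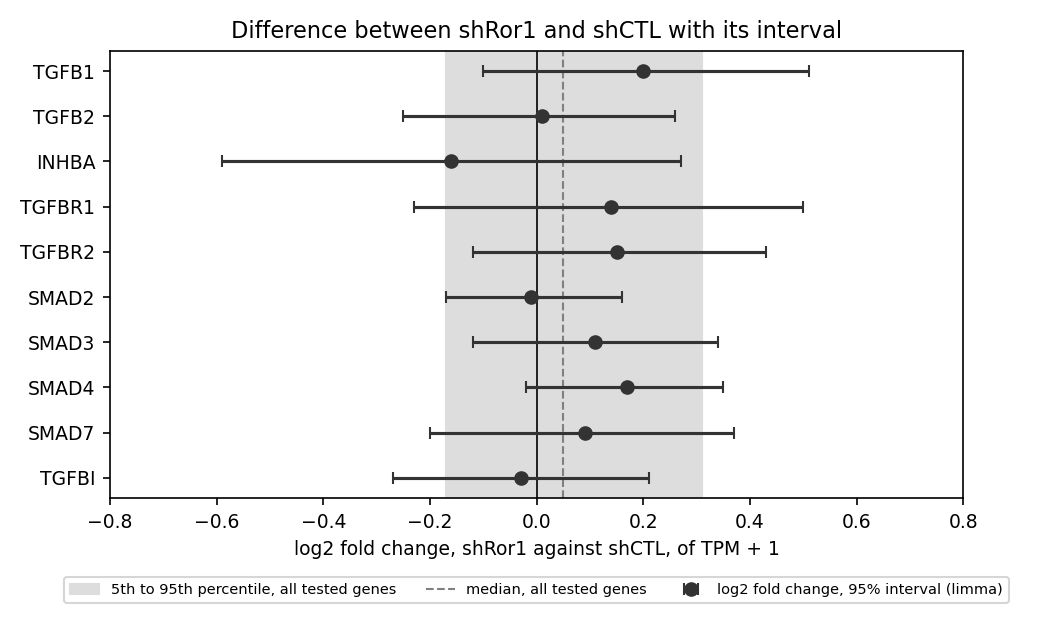
Log2 fold change of TPM + 1 between shRor1 and shCTL for each gene (points) with its 95% interval from limma (bars), over the range from the 5th to the 95th percentile of all tested genes (grey, −0.17 to 0.31) and their median (dashed, 0.05). All 10 intervals include 0, and all 10 points lie within the grey range.

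The lowest of the 6 values fell in shRor1 library 1 for 5 of the 10 genes, TGFB2, TGFBR1, TGFBR2, SMAD2 and TGFBI, and 13.3% of all genes tested had their lowest value there. The highest value fell in shRor1 library 3 for 5 of the 10, TGFB2, TGFBR1, TGFBR2, SMAD2 and SMAD3, and 35.1% of all genes did so. For TGFB2, both receptors, SMAD2 and INHBA, the lowest and the highest value both came from shRor1 libraries. The fit without shCTL library 3 moved TGFB1 to a log2 fold change of 0.31 (limma, unadjusted p = 0.0457, adjusted p = 0.842), where 4.03% of all genes had an unadjusted p below 0.05. Without shCTL library 1 the TGFB1 value was 0.08 (limma, unadjusted p = 0.524, adjusted p = 1.00). SMAD3 moved between 0.03 (without shRor1 library 3) and 0.18 (without shCTL library 3). TGFB2, SMAD2 and TGFBI, whose differences were near 0, changed sign when single libraries were left out.

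**Figure D3:**
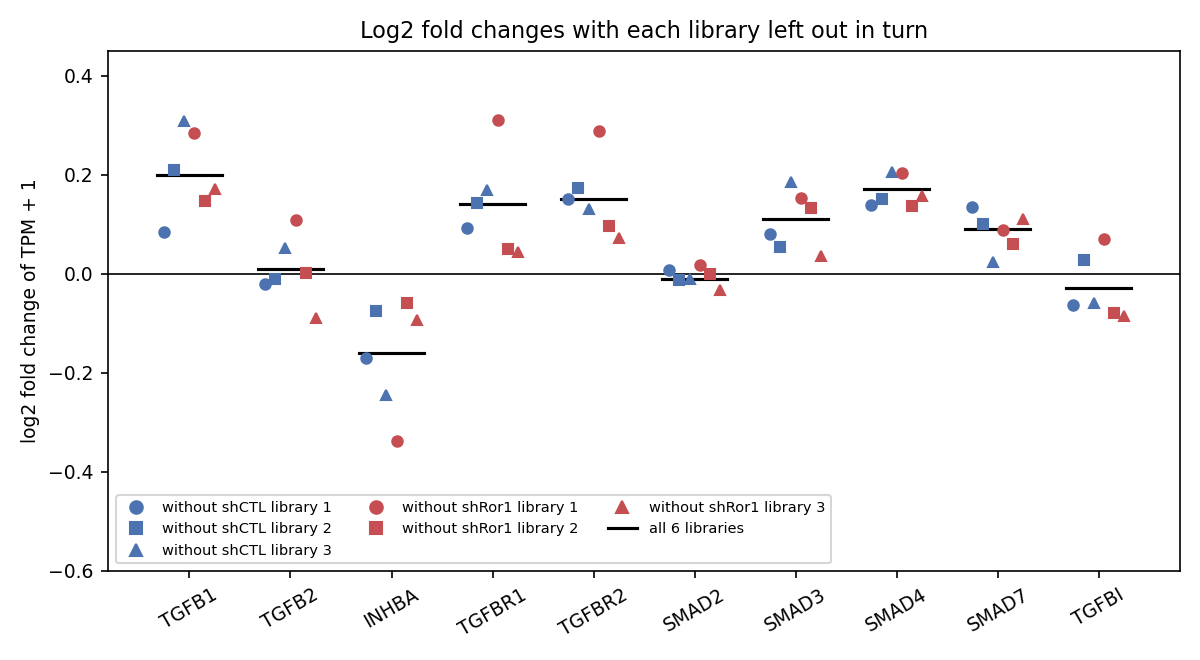
Log2 fold change of TPM + 1 for each gene with all 6 libraries (black line) and after leaving out 1 library at a time (points, coloured by the group of the library left out). The red circles, without shRor1 library 1, lie furthest from the line for both receptors (0.31 for TGFBR1 and 0.29 for TGFBR2) and for INHBA (−0.34).

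The levels of the 10 genes can be ordered, since TPM is per length. The order, and the ratios given below, rest on the transcript lengths that the authors used. They also include any reads of the opposite strand in TGFB1, TGFB2, INHBA and SMAD3. In shCTL, TGFBI (101.8 ± 7.52 TPM), SMAD3 (96.7 ± 9.56 TPM) and TGFBR2 (89.5 ± 2.61 TPM) were the highest of the 10, and neighbours in this order overlapped. TGFBR2 was 1.97 times as high as TGFB2 (45.4 ± 2.58 TPM), and TGFB2 was 1.29 times as high as TGFB1, both without overlap and in 6 of 6 libraries of both groups. TGFB1 and SMAD2 (34.5 ± 0.563 TPM) did not differ beyond their spread. SMAD4 followed, then TGFBR1, which SMAD4 exceeded 2.15 times, and then SMAD7 (3.13 ± 0.322 TPM), which TGFBR1 exceeded 4.15 times. SMAD7 and INHBA (2.64 ± 0.432 TPM) overlapped in range, with SMAD7 above INHBA in 6 of 6 libraries. Among the 16554 genes tested, the mean levels ranged from the 20.1 percentile (INHBA) to the 89.9 percentile (SMAD3 and TGFBI).

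Ratios within a library do not depend on how it was scaled. The type II receptor transcript exceeded the type I transcript by a ratio of 6.89 ± 0.489 in shCTL and 6.94 ± 0.438 in shRor1 (SD, n = 3), although both receptor genes varied between shRor1 libraries. The ratio TGFB2 to TGFB1 was 1.47, 1.25 and 1.18 in shCTL and 1.10, 1.05 and 1.24 in shRor1, so the groups overlapped through shRor1 library 3. SMAD3 exceeded SMAD2 2.81 ± 0.295 times in shCTL and 3.03 ± 0.164 times in shRor1. The common SMAD4 reached 0.213 ± 0.00692 of the sum of SMAD2 and SMAD3 in shCTL and 0.228 ± 0.0163 in shRor1, and the inhibitory SMAD7 reached 0.0241 ± 0.00386 and 0.0245 ± 0.00267. All 5 ratios overlapped between groups, and none was tested.

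**Figure D4:**
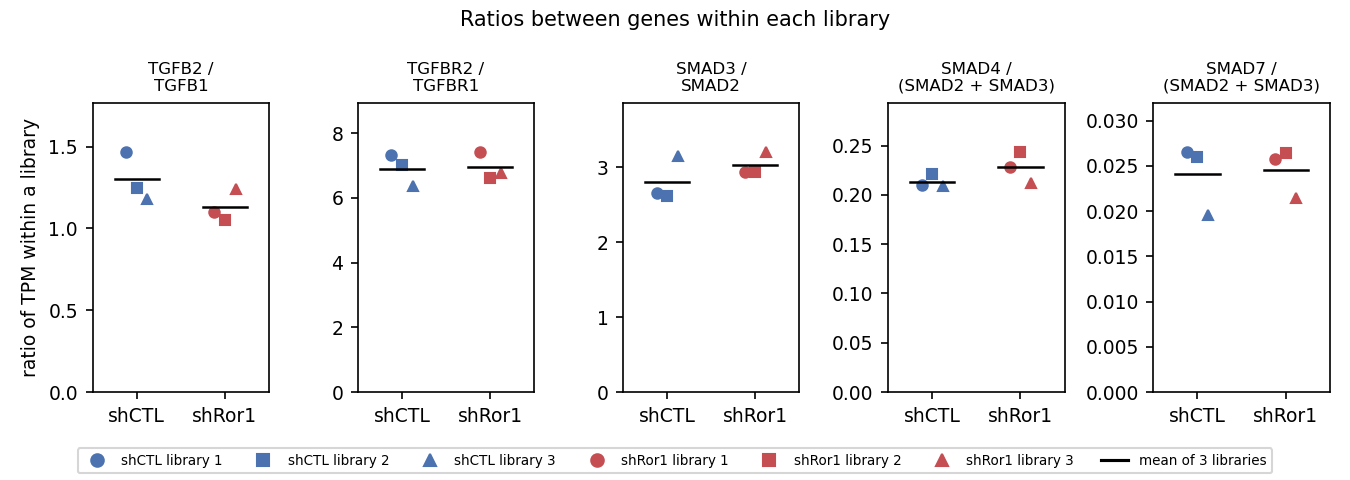
Ratios of TPM between genes within each library (points, marker shapes for libraries 1 to 3) with the mean of 3 libraries (black line), each on its own axis from 0. The ratio of TGFBR2 to TGFBR1 stays between 6.36 and 7.43 in all 6 libraries, and the groups overlap in every panel.

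The remaining genes of the pathway were taken from 7 lists by role. They hold 99 genes, 97 with an identifier and 67 tested. Of the 67, 45 were higher and 22 lower, where 67.0% of all genes tested were higher. The median log2 fold change of the 67 was 0.07, beside 0.05 over all genes. None of the 67 was called by limma (0% of all genes were), 0 had an unadjusted p below 0.05 (2.85% of all genes did), and 1, SMURF2, had groups that did not overlap (7.78% of all genes did).

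Of the other ligands 8 of 30 were tested, 5 higher and 3 lower, with a median of 0.10, which was −0.01 without shCTL library 1. The highest level belonged to BMP4, a BMP ligand, with 35.8 ± 7.75 TPM in shCTL and 38.5 ± 4.48 TPM in shRor1. INHBB, the subunit of activin B, ranged from 9.70 to 21.17 TPM in shCTL and from 12.08 to 23.66 TPM in shRor1, a level several times that of INHBA in every library. AMH, a ligand of the same superfamily known from the gonads, had 8.88 ± 1.09 and 10.7 ± 1.34 TPM. The third TGF-beta ligand, TGFB3, which the rule for naming genes did not select, had only 1.36 to 1.84 TPM, so TGFB2 and TGFB1 made up nearly all TGF-beta ligand transcripts.

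Of the other receptors 9 of 12 were tested, 5 higher and 4 lower, with a median of 0.02. ENG, a co-receptor best known from endothelial cells, had 77.9 ± 8.55 TPM in shCTL and 77.5 ± 11.9 TPM in shRor1. The BMP receptor genes BMPR1A and BMPR2 had 20.3 ± 1.23 and 21.8 ± 2.16 TPM, and 10.6 ± 1.06 and 13.0 ± 2.30 TPM. BMPR2 followed the pattern of the TGF-beta receptors only in part, since its shRor1 library 1 (10.32 TPM) lay within the control range of 9.35 to 11.35 TPM and its other two shRor1 libraries (14.12 and 14.46 TPM) above it. All 4 other SMADs were tested, 1 higher and 3 lower, with a median of −0.04. The BMP transducer SMAD5 (33.6 ± 1.92 and 31.7 ± 2.24 TPM) was close to SMAD2 in level, SMAD1 had 6.97 ± 0.188 and 6.88 ± 0.597 TPM, and the inhibitory SMAD6 1.42 ± 0.385 and 1.78 ± 0.917 TPM.

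Genes of latency and activation were higher for 9 of 10 tested and lower for 1 (67.0% of all genes were higher), with a median of 0.10. This median was 0.01 without shRor1 library 3 and 0.22 without shCTL library 3. LTBP1, which anchors the latent complex in the matrix, had 4.89, 6.32 and 6.69 TPM in shCTL and 5.15, 11.54 and 11.04 TPM in shRor1. As with the receptors, shRor1 libraries 2 and 3 were above all controls and library 1 was not, and the log2 fold change of LTBP1 was 0.50 (SE 0.27, interval −0.14 to 1.14). LTBP4, another latency protein, had 78.3 ± 17.3 and 82.4 ± 16.8 TPM. THBS1, the matrix protein thrombospondin that can release active ligand, was the 1 gene on the lower side, at 99.8 ± 12.5 and 93.2 ± 14.2 TPM. ITGAV, the integrin chain of the receptors that pull ligand free, had 43.4 ± 0.396 and 49.8 ± 9.14 TPM, and its lowest library was again shRor1 library 1 (40.82 TPM).

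Secreted antagonists and decoys were higher for 5 of 6 tested (67.0% of all genes were), with a median of 0.13. FSTL1, a follistatin-like secreted protein, had 135.4 ± 2.82 and 132.6 ± 10.7 TPM. The activin antagonist FST ranged from 46.02 to 64.01 TPM in shCTL and from 51.92 to 59.70 TPM in shRor1, far above the level of INHBA. FSTL3, a related activin antagonist, ranged from 9.07 to 9.99 TPM and from 9.90 to 11.40 TPM, and the decoy receptor BAMBI had 4.73 ± 0.277 and 5.28 ± 0.506 TPM.

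All 12 intracellular inhibitors were tested, 8 higher and 4 lower, with a median of 0.06. SMURF2, a ubiquitin ligase that with SMAD7 marks the receptors for degradation, had 134.7, 135.73 and 133.15 TPM in shCTL and 139.58, 154.75 and 153.36 TPM in shRor1. Every shRor1 library of SMURF2 was above every control, as for 6.48% of all genes tested, with a log2 fold change of 0.15 (SE 0.07, interval −0.01 to 0.31, limma adjusted p = 0.984). FKBP1A, which keeps the type I receptor silent without ligand, was high and nearly equal, at 587 ± 20.4 and 588 ± 20.8 TPM. STRAP, which holds SMAD7 at the receptor, had 187 ± 16.6 and 196 ± 13.2 TPM, and the nuclear co-repressor SKI 22.3 ± 1.12 and 23.9 ± 0.474 TPM.

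Direct target genes of the pathway were higher for 16 of 22 tested and lower for 6 (67.0% of all genes were higher), with a median of 0.10. The 2 with the highest levels, CCN1 and CCN2, secreted matricellular proteins that other pathways induce as well, had 765 ± 64.7 and 737 ± 58.6 TPM, and 237 ± 30.7 and 228 ± 26.1 TPM. TPM1, the gene for the actin-binding tropomyosin 1, had 125 ± 8.22 and 141 ± 13.6 TPM, a log2 fold change of 0.17 (SE 0.09, interval −0.05 to 0.38). ANGPTL4, a secreted lipase inhibitor, had 4.62 ± 0.384 and 5.71 ± 1.30 TPM. The highest log2 fold change among all lists belonged to FN1, the gene for fibronectin, which is named here after its values were seen. FN1 had 15.59, 20.84 and 43.88 TPM in shCTL and 17.02, 39.34 and 76.86 TPM in shRor1, so that its range within each group was wider than the difference between the means, and its log2 fold change of 0.60 had an SE of 0.55.

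**Figure D5:**
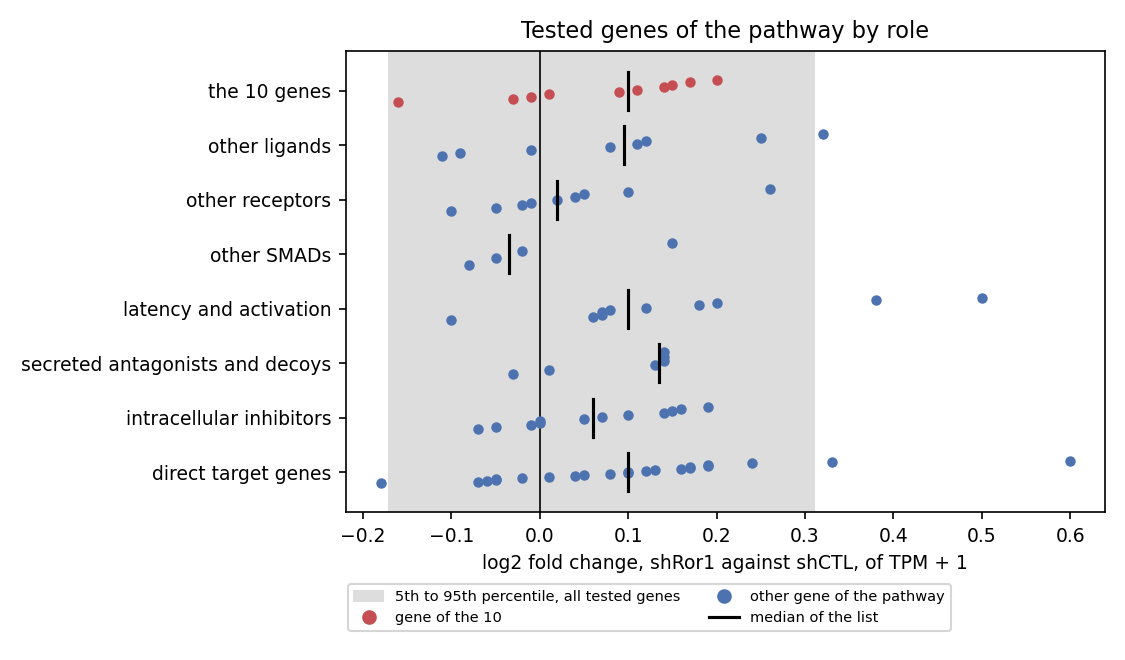
Log2 fold change of TPM + 1 between shRor1 and shCTL for the 10 genes (red) and the other tested genes of the pathway by role (blue), with the median of each list (black line) and the range from the 5th to the 95th percentile of all tested genes (grey). List medians lie between −0.04 and 0.13, and LTBP1 at 0.50 and FN1 at 0.60 lie furthest to the right in their lists.

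INHBA had the widest range over libraries among the 10 on the log2(TPM + 1) scale. The 3 genes whose values across the 6 libraries, each centred on its own mean, lay nearest to those of INHBA were ENSG00000248596, DAW1 and BDH1, with root mean square differences of 0.036, 0.057 and 0.062. Each of these 3 was picked from 16554 genes over only 6 libraries. DAW1 had 8.77, 9.74 and 8.62 TPM in shCTL and 10.1, 6.74 and 7.29 TPM in shRor1, and like INHBA it was highest in shRor1 library 1.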

How the data were processed

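RNA of 6 MDA-MB-231 samples (3 shCTL, 3 shRor1) was sequenced as single reads of 50 bases with a stranded kit for total RNA, while the molecule label says polyA RNA. Per the methods and the submitters' processing notes, the authors mapped the reads with STAR to GRCh37 with Ensembl 73 and estimated gene abundances with RSEM 1.2.5 before using edgeR. The values deposited by the authors are TPM of each gene in each library. Their name speaks of expected counts, but every column has the same total of 1000000 within rounding. TPM keeps no depth, so precision comes only from the spread of libraries, and no count model was used. The number of unused sample columns was 0.

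The 16554 genes that reached 1 TPM in 3 or more libraries were fitted on log2(TPM + 1) with limma 3.58.1 in R 4.3.3, with condition as the only term and a mean-variance trend, and p-values were adjusted over all of them with the Benjamini-Hochberg method at 0.05. Log2 fold changes understate changes of low genes. Single genes were also compared with an exact two-sided permutation test. The fit was tested on simulated data. Positions, exons and sequences came from GRCh37 with GENCODE 44 mapped to that build, a later annotation than that of the authors. Symbols matched 55022 of the 57445 identifiers, and listed genes without a match (GDF2, GDF10, PECAM1) were not used here.

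The 10 genes, the gene lists and the tests were chosen with earlier results of these data known. Named genes were the 10, ROR1, in each pathway list the 2 with the highest mean and the 2 with the smallest unadjusted p (some coincide), any listed gene past the threshold, and the 3 nearest in pattern to the gene with the widest range. Alternatives were other filters, a pseudocount of 0.1, quantile and median ratio scaling, no trend, a residual component as covariate, values summed over genes sharing exons, and each library left out in turn.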

Additional observations from a re-analysis of the deposited data

How the results depend on the processing

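In all 14 alternatives 0 of the 10 genes and 0 of the other pathway genes passed the limma threshold at an adjusted p of 0.05. Over all genes the count stayed at 0 in 13 alternatives, and leaving out single libraries gave 0 to 1, the 1 being RPL39P3 without shRor1 library 3, a gene named after its value was seen. The number of the 10 with an unadjusted p below 0.05 was 0 to 2 when single libraries were left out (2 without shRor1 library 1, 1 without shCTL library 3) and 0 otherwise. Genes at an unadjusted p below 0.05 numbered 472 of 16554 in the fit reported, 1363 of 39104 without a filter and 227 of 11145 at a mean of at least 5 TPM. Their number was 1060 with the leading residual component and 278 to 1720 with single libraries left out. With single libraries left out, 0 to 11 of the 67 other pathway genes were among them. The 11 arose without shRor1 library 1, where 10.4% of all genes had an unadjusted p below 0.05. Differences near 0 changed sign: TGFB2 to −0.022 with quantile normalization, −0.053 with median ratio scaling and −0.090 to 0.11 without single libraries; SMAD2 to 0.008 and 0.017 (range −0.03 to 0.017) and TGFBI to 0.028 and 0.070 (range −0.08 to 0.070), each without 1 library; and SMAD7 to −0.008 with quantile normalization. Both scalings moved the median of all genes from 0.05 to 0.00, and 5 to 9 of the 10 genes were higher across alternatives. The filter at 5 TPM removed SMAD7 and INHBA. The TGFB1, TGFBR1, TGFBR2, SMAD3, SMAD4, INHBA and ROR1 directions held in every alternative run for them, and ROR1 ranged from −0.58 to −0.26. Other filters, no trend and the residual covariate cannot change a log2 fold change, and summing over shared exons changed only SMAD4 among these. Only the other pseudocount, both scalings and leaving out a library could therefore move the rest. Among list medians, that of the other ligands moved from 0.10 to 0.01 with quantile normalization and to −0.01 to 0.12 without single libraries, that of latency and activation to 0.01 to 0.22 without single libraries, and that of secreted antagonists from 0.13 to 0.04 without a filter and with quantile normalization. The cause of these movements was not tested. No paired analysis was possible because headers of the columns hold no replicate numbers. Count models were not run, since the values are TPM.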
